A study of Mus musculus with 20 samples.

Results

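The livers of untreated Pdss2 mutant mice were compared with those of wild-type mice, which made 10 of the 20 arrays of the study. Livers were placed in groups by the treatment and source labels. The tested livers came from 5 female B6.Pdss2(kd/kd) mice, homozygous for the kd missense allele, on standard chow and 129 to 143 days old. The wild-type livers came from 5 female B6 mice on the same chow, 215 to 217 days old. The mutant strain had been made by moving a recombinant chromosome onto the B6 background, and its mice were of backcross generation 13, per the labels, so that the allele and whatever linked sequence came with it cannot be told apart. Genotype and age cannot be told apart either, since every mutant was younger than every wild-type mouse. For the 5 untreated mutants the array name starts with Prob, and for the 5 mutants labelled as fed probucol it starts with Untr. This prefix disagrees with the treatment label, and the label was used throughout. Values with the prefix read as the group are given for the called probes and for part of the gene groups, and medians of other groups move too. The remaining 10 arrays, of kd/kd females labelled as fed chow with probucol or as given CoQ10, 5 each, entered the fit to estimate the spread between livers and are described for the called genes at the end.

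PDSS2 is a subunit of the enzyme that builds the isoprenoid tail of coenzyme Q. Coenzyme Q carries electrons within the inner mitochondrial membrane from complex I, complex II and several dehydrogenases of fatty acid, sulfide, amino acid and pyrimidine metabolism to complex III. Mice homozygous for kd are known for a kidney disease that affects the glomeruli and tubules, and the liver is studied as a tissue that carries the same defect. Kidney disease was on record for these mice. Urine albumin was 27.85, 53.25, 57.34, 17.41 and 13.52 mg per 24 h in the mutants, against 0.15, 0.20, 0.14, 0.17 and 0.16 mg per 24 h in wild type. The glomerular nephritis score averaged 2.8 ± 0.837 in mutants and 0.2 ± 0.447 in wild type (SD, n = 5 each). Neither measure overlapped between the groups, and the two-sided exact permutation p was 0.00794 for each, the smallest that 5 against 5 mice can give.

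The arrays measured RNA of whole liver as the brightness of gene-specific probes, and a level is given here as log2 of the normalised intensity. Between 12386 and 15003 probes were detected in mutant livers and between 12519 and 14972 in wild-type livers. Of 45281 probes, 15096 were kept, and these covered 9262 named genes. The tissue label held at its markers: Apoa1, the main protein of high-density lipoprotein, lay at 16.05 to 16.13 in mutants and 16.08 to 16.14 in wild type, and Ttr, a plasma carrier of thyroid hormone, at 16.05 to 16.14 in mutants and 16.09 to 16.13 in wild type. The probe of Alb, albumin, was dimmer, at 8.71 to 9.34 in mutants and 8.68 to 9.32 in wild type. The brightest probe of Xist, the RNA that coats the inactive X chromosome, lay at 10.19 to 10.78 in mutants and 10.55 to 10.92 in wild type, and the Y-linked genes Eif2s3y, Kdm5d and Uty were detected in 0 of 10 livers, so the sex label held in every liver. No probe was named Pdss2, and its own transcript was not analysed here. The first principal component over all 20 arrays held 24.19% of the variance. On it untreated mutants lay at -24.76, -22.29, 1.23, 25.77 and 15.01, and wild type at -29.87 to 18.79. Arrays numbered 1 in their name lay at -29.87 to 13.64 and those numbered 2 at -38.07 to 1.23. Those numbered 3 lay at 14.91 to 25.77 and those numbered 4 at -2.24 to 15.01. The second component (12.88%) set untreated mutants 1 and 4 apart from the other untreated mutants, at 14.87 and 12.67. The other untreated mutants lay at -7.05, -17.26 and -13.02 and wild type at -22.92 to -10.48, and calls and group medians that move without these 2 livers are given without them too.

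Most liver transcripts differed little between the groups. Of the 15096 kept probes 18 were called at an adjusted p under 0.05 (0.119%), 5 of them higher in mutants (0.0331%) and 13 lower (0.0861%). They named 15 genes, each with a single called probe, and 3 had no gene name in the annotation used. Here and below the adjusted p is the Benjamini-Hochberg value over all kept probes in limma's fit of all 20 arrays. The middle 50 percent of all log2 differences lay between -0.11 and 0.11, and 5 percent of them lay below -0.31 and 5 percent above 0.29. The estimates passed 2-fold for 27 probes higher in mutants and 23 lower. The 95% confidence interval stayed within 2-fold in either direction for 96.4% of the kept probes and within 1.5-fold for 74.9%, with a median standard error of 0.16. At an unadjusted p under 0.05 stood 831 probes (5.50%), 419 higher (2.78%) and 412 lower (2.73%), of which chance alone gives 755. The groups did not overlap for 235 probes (1.56%). Of these, 113 lay higher in mutants (0.749%) and 122 lower (0.808%).

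**Figure D1:**
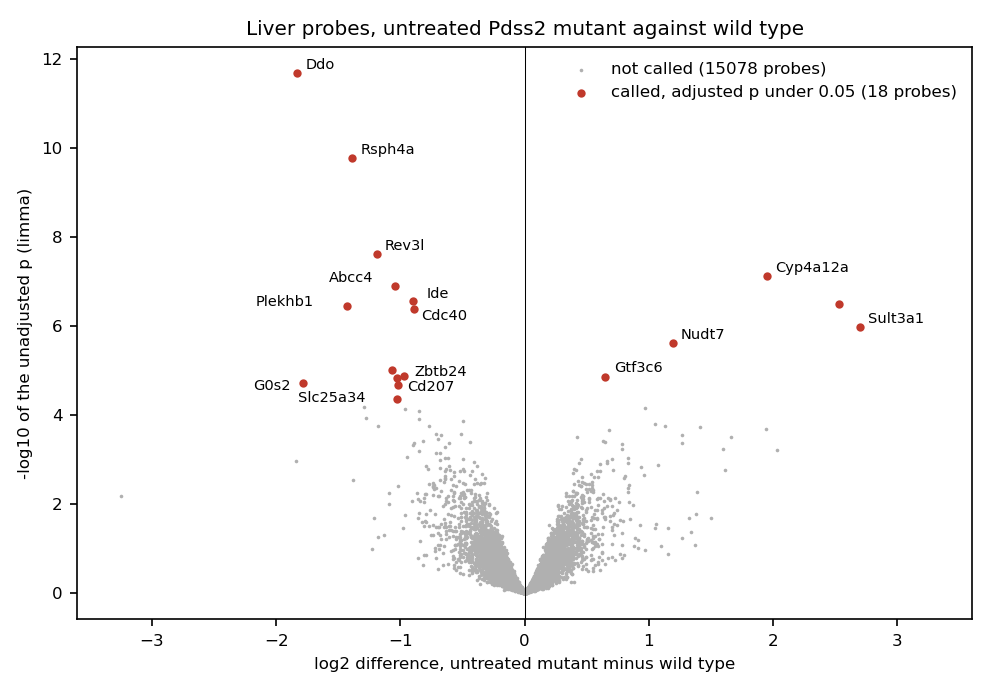
Each point is 1 of 15096 kept probes, placed by its log2 difference, untreated mutant minus wild type (x axis), and by minus log10 of its unadjusted p in limma's fit (y axis). The 18 called probes are red, and the 15 with a gene name are labelled, with Ddo highest on the left and Sult3a1 farthest on the right.

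Among called genes detected in both groups, the largest rise was that of Sult3a1, a cytosolic sulfotransferase found mainly in the liver of female mice. Its levels were 9.25, 9.93, 9.87, 9.63 and 9.44 in the mutants, against 6.04, 6.56, 7.32, 7.66 and 7.01 in wild type. The lowest mutant liver thus lay above the highest wild-type liver, and the difference was 2.70 ± 0.40 on the log2 scale (SE, adjusted p = 0.00158, 6.51-fold). Sult3a1 was detected in 5 of 5 mutants and 4 of 5 wild-type livers. Cyp4a12a, a fatty acid hydroxylase found mainly in male mouse liver, lay at 8.54, 7.91, 7.37, 7.25 and 6.51 in the mutants. In wild type it lay at 5.60, 5.83, 5.52, 5.30 and 5.57, where it was detected in 0 of 5 livers. It was detected in all 5 mutants, with a wide spread among them, and was at least 2.50-fold higher than in wild type (adjusted p = 2.89e-04). For a probe undetected in a whole group, a fold is such a bound, set against the dimmest signal detected on each array.

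Nudt7, a peroxisomal enzyme that breaks down coenzyme A and its esters, rose as well. Its called probe read 11.63, 11.58, 11.35, 11.58 and 11.18 in mutants, against 10.80, 9.83, 10.53, 10.12 and 10.09 in wild type. This was a difference of 1.19 ± 0.19 (adjusted p = 0.00328). All 4 kept probes of Nudt7 pointed the same way, the other 3 at 0.97 ± 0.20, 1.27 ± 0.29 and 0.76 ± 0.26, and the brightest of them missed the threshold (adjusted p = 0.0526). Gtf3c6, a subunit of the general factor TFIIIC used by RNA polymerase III, rose by 0.65 ± 0.12 (adjusted p = 0.0147). Its other probe gave 0.0043 ± 0.16, so the gene's 2 probes disagreed. The fifth rise was the unnamed probe ILMN_1214874, at 8.52 to 9.90 in mutants and 6.28 to 7.03 in wild type (2.53 ± 0.34, adjusted p = 6.70e-04).

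Among the genes that fell, Abcc4 encodes MRP4, a pump that exports bile acids, conjugated steroids and cyclic nucleotides. Abcc4 read 7.06, 6.67, 7.23, 6.94 and 6.85 in mutants, against 8.12, 7.91, 7.83, 7.92 and 8.18 in wild type. The 5 mutants lay below every wild-type liver, with a difference of -1.04 ± 0.13 (adjusted p = 3.77e-04). G0s2, an inhibitor of the triglyceride lipase ATGL, was lower in mutants by 3.43-fold. Its levels were 8.90, 9.79, 10.48, 9.47 and 9.46 in mutants, against 11.12, 11.55, 11.22, 11.68 and 11.44 in wild type (-1.78 ± 0.32, adjusted p = 0.0183). The mutants differed among themselves by more than the wild-type livers did, yet none reached the lowest wild-type value.

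Plekhb1, a membrane protein with a pleckstrin homology domain, was tight in both groups, at 8.90, 8.71, 8.52, 8.77 and 8.83 in mutants and 10.13, 10.45, 10.40, 9.85 and 10.02 in wild type (-1.43 ± 0.20, adjusted p = 6.76e-04). Ide, the protease that degrades insulin, read 10.32, 10.44, 10.30, 10.24 and 10.43 in mutants and 11.32, 11.13, 11.17, 11.15 and 11.40 in wild type (-0.89 ± 0.12, adjusted p = 6.87e-04). A second Ide probe gave -0.90 ± 0.22 and the dimmest one 0.19 ± 0.23, so that the probes of Ide do not all point one way. Cd207, the lectin langerin of Langerhans cells and some other dendritic cells, was at 6.94 to 7.26 in mutants and 7.51 to 8.52 in wild type (-1.03 ± 0.18, adjusted p = 0.0149). Slc25a34, a mitochondrial carrier of unassigned substrate, was at 6.09 to 6.91 in mutants, where 3 of 5 livers had it detected, and 7.26 to 7.62 in wild type (-1.02 ± 0.19, adjusted p = 0.0188). The unnamed probes ILMN_3079461 (-1.08 ± 0.19) and ILMN_1245816 (-1.03 ± 0.20) fell too.

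**Figure D2:**
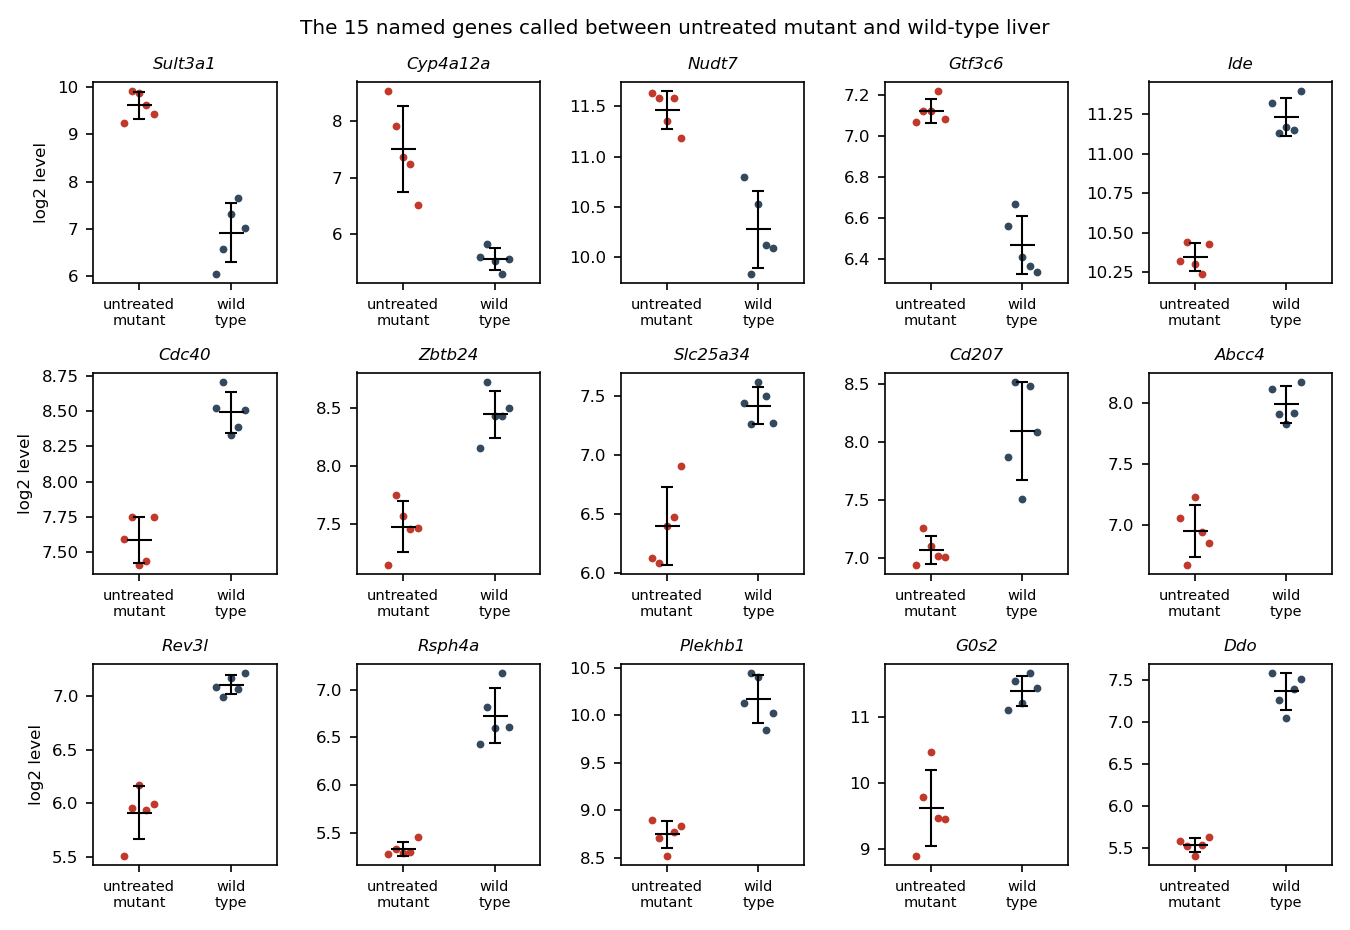
Level (log2 normalised intensity, y axis) of the 15 named called genes, each at its called probe, in each liver. Untreated mutants are left and wild type right, with the mean and SD of 5 livers as bars. In every panel the 2 groups do not overlap, and panels run by the fitted log2 difference from Sult3a1 to Ddo, of which Ddo, Rsph4a, Rev3l and Cyp4a12a are undetected in 1 group and have only a bound, and the axes differ between panels and do not start at 0.

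Sult3a1 and Abcc4 are both genes with higher expression in female than in male mouse liver, and they changed in opposite directions. Their promoters are shown because much of the sex difference of mouse liver is known to depend on the growth hormone signal that activates STAT5, whose sites have the form TTCNNNGAA, a motif that is its own reverse complement. The sequences below run from 250 bases before to 50 bases after the gene's start, 5′ to 3′ on the gene's strand, from RefSeq's promoter table for GRCm38.p6, with the motif in capitals.
Sult3a1: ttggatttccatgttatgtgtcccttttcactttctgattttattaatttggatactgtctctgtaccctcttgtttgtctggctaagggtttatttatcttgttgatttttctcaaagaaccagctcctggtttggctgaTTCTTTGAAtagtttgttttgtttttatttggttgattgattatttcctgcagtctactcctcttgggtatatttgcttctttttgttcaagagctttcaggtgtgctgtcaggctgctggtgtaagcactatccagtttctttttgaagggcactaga
Abcc4: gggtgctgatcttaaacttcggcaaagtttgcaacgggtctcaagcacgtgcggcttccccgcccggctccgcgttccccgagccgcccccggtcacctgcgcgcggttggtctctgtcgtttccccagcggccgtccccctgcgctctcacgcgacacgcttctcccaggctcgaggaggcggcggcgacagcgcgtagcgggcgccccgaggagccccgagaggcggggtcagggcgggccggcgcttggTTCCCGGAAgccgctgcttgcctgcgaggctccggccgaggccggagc
The first is chr10:33857472-33857771 on the plus strand, with the motif's first base at -109, where the first of the 50 bases after the start counts as 1, and the second is chr14:118706170-118706469 on the minus strand, with the motif at 3. RefSeq's table has 2 Abcc4 promoters, and only this one held the motif. It was also held by 8.30% of all 32851 promoters in the table and by 9.55% of the genes with a promoter there, by 5 of the 24 female-biased genes matched to it (20.8%) and by 2 of the 17 male-biased genes (11.8%), so the match is a description of these letters and no site of binding.

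Of the 18 called probes 7 belonged to genes on chromosome 10, where Pdss2 lies, which was 1.08% of the 646 kept probes there. No other chromosome held more than 2. All 7 lay within 100 protein-coding genes of Pdss2 by gene order, in a stretch with 129 kept probes (5.43% called), against 11 of the 14967 other kept probes (0.0735%). The genes were Zbtb24, Cdc40, Ddo, Gtf3c6, Rev3l, Rsph4a and Sult3a1, at positions -17, -22, -24, -29, -35, -59 and -60 in gene order counted from Pdss2, all on the same side of it. Besides Sult3a1 and Gtf3c6 these genes fell at their called probes, and those of Ddo, Rsph4a and Rev3l were kept only through the wild-type livers.

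The called probe of Ddo, which encodes D-aspartate oxidase, read 5.59, 5.53, 5.41, 5.54 and 5.63 in mutants, where this probe was not detected in any liver. In wild type it read 7.59, 7.27, 7.05, 7.4 and 7.52. It was at least 2.22-fold lower in mutants (adjusted p = 3.10e-08, the smallest of all probes). This Ddo probe and that of Rsph4a were detected in only 5 of the 20 arrays, those of wild type, and so were kept through that group alone. The other 3 kept probes of Ddo were detected in 5 of 5 mutants and 5 of 5 wild-type livers. They gave 0.65 ± 0.15, 0.093 ± 0.15 and, for the brightest, -0.52 ± 0.15, so that probes of 1 gene ran in opposite directions. Rsph4a, part of the radial spoke of motile cilia, was at 5.28, 5.33, 5.29, 5.30 and 5.46 in mutants (0 of 5 detected), against 6.43, 6.82, 6.6, 7.18 and 6.61 in wild type, at least 1.43-fold lower (adjusted p = 1.24e-06). Rev3l, which copies past DNA damage as part of polymerase zeta, was at 5.51 to 6.17 in mutants (0 of 5 detected) and 6.99 to 7.22 in wild type, at least 1.86-fold lower (adjusted p = 1.19e-04). It was detected in 8 of the 20 arrays, 5 of wild type, 1 of mutants labelled probucol and 2 of mutants labelled CoQ10. Rev3l too therefore passed the filter only through wild type.

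Cdc40, a factor of the second step of splicing, was at 7.41 to 7.75 in mutants and 8.33 to 8.71 in wild type (-0.90 ± 0.12, adjusted p = 6.70e-04). Zbtb24, a zinc finger protein needed for the methylation of centromeric repeats, was at 7.15 to 7.75 in mutants and 8.16 to 8.73 in wild type (-0.97 ± 0.17, adjusted p = 0.0147). Near the same place Fam229b, at position -40, was detected in 5 of 5 mutants and 0 of 5 wild-type livers, but its difference of at least 1.89-fold was not called (adjusted p = 0.124).

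Several calls lay close to the threshold and were lost with 1 array fewer, at differences of similar size. G0s2 missed the threshold without any 1 of 6 livers (wild type 2, 4 or 5, untreated 1, 4 or 5), at an adjusted p of 0.0568 to 0.0805 and differences of -1.77 to -1.60. Slc25a34 did so without wild type 3 or 4 or untreated 1, 2 or 3 (-1.01 to -0.94, adjusted p of 0.0533 to 0.0818), and Gtf3c6 without wild type 3, 4 or 5 (0.62 to 0.63, adjusted p of 0.0568 to 0.0643). Cd207 lost its call without wild type 2 or 4 or untreated 1 (-0.99 to -0.92, adjusted p of 0.0588 to 0.0707) and Zbtb24 without wild type 2 or untreated 1 (-0.90 and -0.89, adjusted p of 0.0707 and 0.0588), and the unnamed ILMN_1245816 in 7 of 10 such fits (adjusted p of 0.0778 to 0.106). The other 12 called probes stayed called whichever liver was left out. With untreated mutants 1 and 4 both left out, Cd207, G0s2, Gtf3c6, Nudt7, Slc25a34 and Zbtb24 lost their calls, at adjusted p of 0.0935 for Nudt7 to 0.317 for G0s2, and 12 probes kept theirs. The differences were then -0.97 for Cd207, -1.49 for G0s2, 0.63 for Gtf3c6, 1.09 for Nudt7, -0.95 for Slc25a34 and -0.85 for Zbtb24. With the array name prefix read as the group, 11 of the 18 probes stayed called, and Abcc4, Cd207, Cyp4a12a, Nudt7, Sult3a1 and 2 unnamed probes were lost. Cyp4a12a was then undetected in both groups, and the differences were -0.17 for Abcc4, -0.26 for Cd207, 0.77 for Nudt7 and 1.63 for Sult3a1.

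Detection as such changed for few genes. Of all probes on the array 10675 were detected in all 10 livers and 27973 in none. Besides Fam229b and Cyp4a12a, Cyp4a12b, a close relative of Cyp4a12a whose probe may share its transcripts, was detected in 5 of 5 mutants and 0 of 5 wild-type livers (at least 1.35-fold higher, adjusted p = 0.144). Like Cyp4a12a it was kept through the untreated mutants alone. Detection in 5 of 5 wild-type livers and 0 of 5 mutants held for the called probe of Ddo, for Rev3l and Rsph4a and for 3 genes that were not called. These were Nudt11, a hydrolase of diphosphoinositol polyphosphates (at least 1.33-fold lower in mutants, adjusted p = 0.0549), Akr1b8, an aldo-keto reductase (at least 1.28-fold, adjusted p = 0.309), and Lyzl1 (at least 1.04-fold, adjusted p = 0.972).

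Below the threshold, the genes of smallest p whose groups did not overlap included Hspb1, a small heat shock protein. Hspb1 was at 8.34, 9.09, 8.82, 9.02 and 8.21 in mutants, against 10, 9.54, 9.51, 9.82 and 9.41 in wild type (-0.96 ± 0.19, adjusted p = 0.0526). Rcan2, a regulator of the phosphatase calcineurin, differed by -1.28 ± 0.27, the cell-surface protein Amigo2 by -0.50 ± 0.11, and Kyat3, a kynurenine aminotransferase, by -0.67 ± 0.15. On the other side Cib3, a calcium-binding protein, differed by 1.94 ± 0.43, Mmd2 by 1.13 ± 0.25, and Rbx1, the RING subunit of cullin ubiquitin ligases, by 0.42 ± 0.098. Of the next 10 probes on each side none passed, at adjusted p between 0.0526 and 0.142. The 10 higher ones included other probes of the called genes Nudt7 and Ddo, that of Ddo (0.65 ± 0.15) opposite in direction to its called probe.

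Gene groups were then described at the brightest kept probe of each gene. Over all 9262 genes 4660 lay higher and 4602 lower in mutants, with a median of 0.0012, 13 genes were called (0.140%), 5.90% had an unadjusted p under 0.05 (3.02% higher, 2.87% lower), and the groups did not overlap for 1.76%. Each group below is to be read against these shares, and no group was tested as a whole. The plot of group medians shows 57 groups with at least 10 measured genes.

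**Figure D3:**
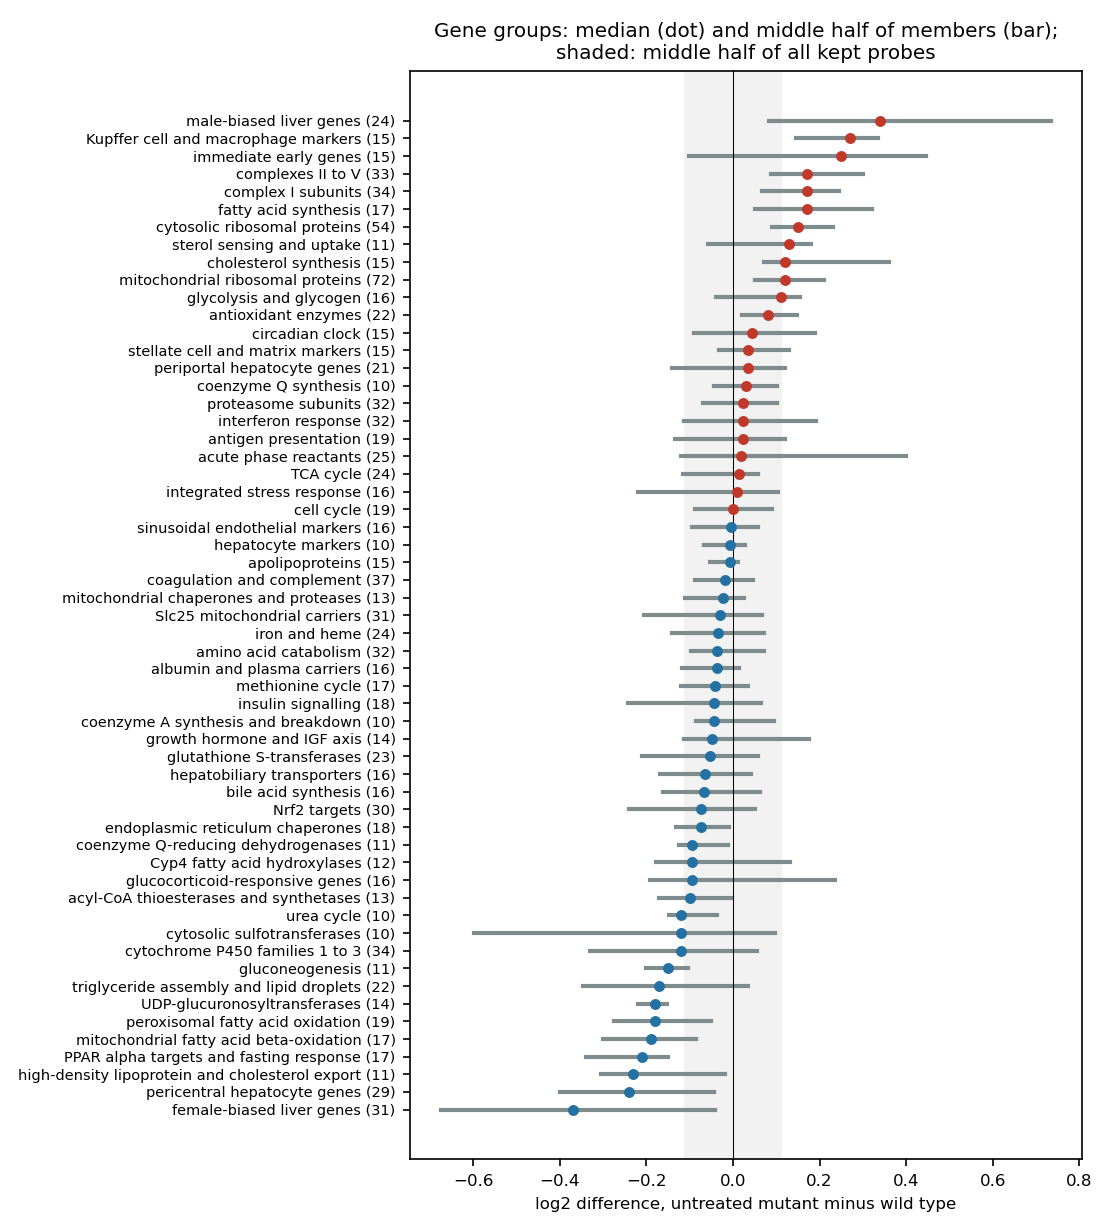
Median log2 difference, untreated mutant minus wild type (dot, red above 0 and blue below), and middle 50 percent of the members (bar) for each gene group with at least 10 measured genes, with the number of genes in parentheses. The shaded band is the middle 50 percent of all kept probes, from -0.11 to 0.11. Male-biased liver genes lie farthest to the right, at 0.34, and female-biased liver genes farthest to the left, at -0.37. Without the 4 male-biased genes kept only through the untreated mutants, the male-biased median is 0.25.

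Mouse liver has many genes that differ between the sexes under the control of growth hormone. All of these livers were female. Of the plotted groups, male-biased genes had the highest median and female-biased genes the lowest. For the male-biased genes this rested on 4 genes described below. Without them Kupffer cell and macrophage markers had the higher median, at 0.27. Of 24 measured male-biased genes 19 lay higher in the mutants and 5 lower, with a median of 0.34. At an unadjusted p under 0.05 there were 6 higher and 0 lower, and Cyp4a12a was called. However, Cyp4a12a, Cyp4a12b, Elovl3 and Hsd3b5 were detected in fewer than 5 of the other 15 arrays and so were kept only through the untreated mutants, so a rise among them is no support for the list. Leaving these 4 genes out, a step chosen after seeing the data that also names Elovl3 and Hsd3b5, 16 of 20 lay higher and 4 lower, with a median of 0.25, and 4 higher and 0 lower were at that threshold. Of 31 measured female-biased genes 25 lay lower and 6 higher, with a median of -0.37, and 8 lower and 1 higher reached an unadjusted p under 0.05, with Abcc4 called lower and Sult3a1 called higher. Of these 31 genes 0 were kept only through the untreated mutants, a count that cannot bear on a fall. Genes kept only through the wild-type livers, where this list is high, were not counted. How far the filter shaped this list's fall is therefore not known. List means were then set against the wild-type mean. For all 24 male-biased genes they were 0.36, 0.74, 0.35, 0.49 and 0.44 in the mutants and -0.12 to 0.10 in wild type. Those means include the 4 genes kept only through the untreated mutants, and means without them were not taken. The female-biased genes lay at -0.42, -0.26, -0.39, -0.32 and -0.21 in the mutants and at -0.12 to 0.10 in wild type. For both lists all 5 mutants lay outside the range of the wild-type livers, for the male-biased list with those 4 genes in.

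Cyp2d9, a steroid hydroxylase of male mouse liver, was at 11.89, 12.18, 12.23, 11.79 and 12.06 in mutants, against 10.21, 10.88, 11.12, 10.11 and 10.80 in wild type (1.41 ± 0.31, adjusted p = 0.0926). C6, a complement component with male bias, was at 9.06 to 10.09 in mutants and 8.43 to 9.04 in wild type (0.71 ± 0.20, adjusted p = 0.309). Neither gene overlapped between groups, and neither passed the test. Among female-biased genes, Serpinb1a, an inhibitor of neutrophil proteases, was at 8.09, 7.98, 7.4, 7.61 and 7.56 in mutants, against 9.49, 9.12, 8.67, 8.97 and 8.85 in wild type (-1.29 ± 0.26, adjusted p = 0.0526). Sult2a1, a sulfotransferase of bile acids and hydroxysteroids, was at 6.0, 5.40, 5.38, 6.66 and 5.48 in mutants, where 1 liver had it detected, and 6.90 to 8.12 in wild type (-1.84 ± 0.49, adjusted p = 0.255). Its neighbour in the family, Sult2a2, is not among the measured genes of the female-biased list. Sult2a2 split the mutants, with 13.09 and 13.38 in replicates 1 and 4 and 9.0, 9.44 and 8.65 in the other 3, against 13.37 to 14.41 in wild type (-3.25 ± 1.08, adjusted p = 0.53). Replicates 1 and 4 are those that stood apart on the second component, and 3 of the 5 mutants lay far below every wild-type liver for this gene.

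The retinol dehydrogenase Rdh9 (-0.64 ± 0.16), the lipoprotein receptor Vldlr (-0.87 ± 0.28) and the acyl-CoA thioesterases Acot4 (-0.58 ± 0.18) and Acot3 (-1.21 ± 0.49) also lay lower among female-biased genes, at adjusted p of 0.235, 0.51, 0.426 and 0.74. The female-biased median was -0.21 without untreated mutant 1 alone. Without untreated mutants 1 and 4 the median was 0.33 for male-biased (all 24 genes) and -0.25 for female-biased genes. With the array name prefix read as the group it was 0.12 and -0.20. For these lists too, genotype and age cannot be told apart. In the growth hormone and IGF list the median was -0.048, or 0.12 without untreated mutants 1 and 4 and -0.17 by the prefix, with Igf1, the circulating growth factor, at 0.22 ± 0.14, Igfbp3, its carrier, at 0.42 ± 0.17, and the kinase Jak2 at -0.41 ± 0.17, and none of its 14 genes was called.

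**Figure D4:**
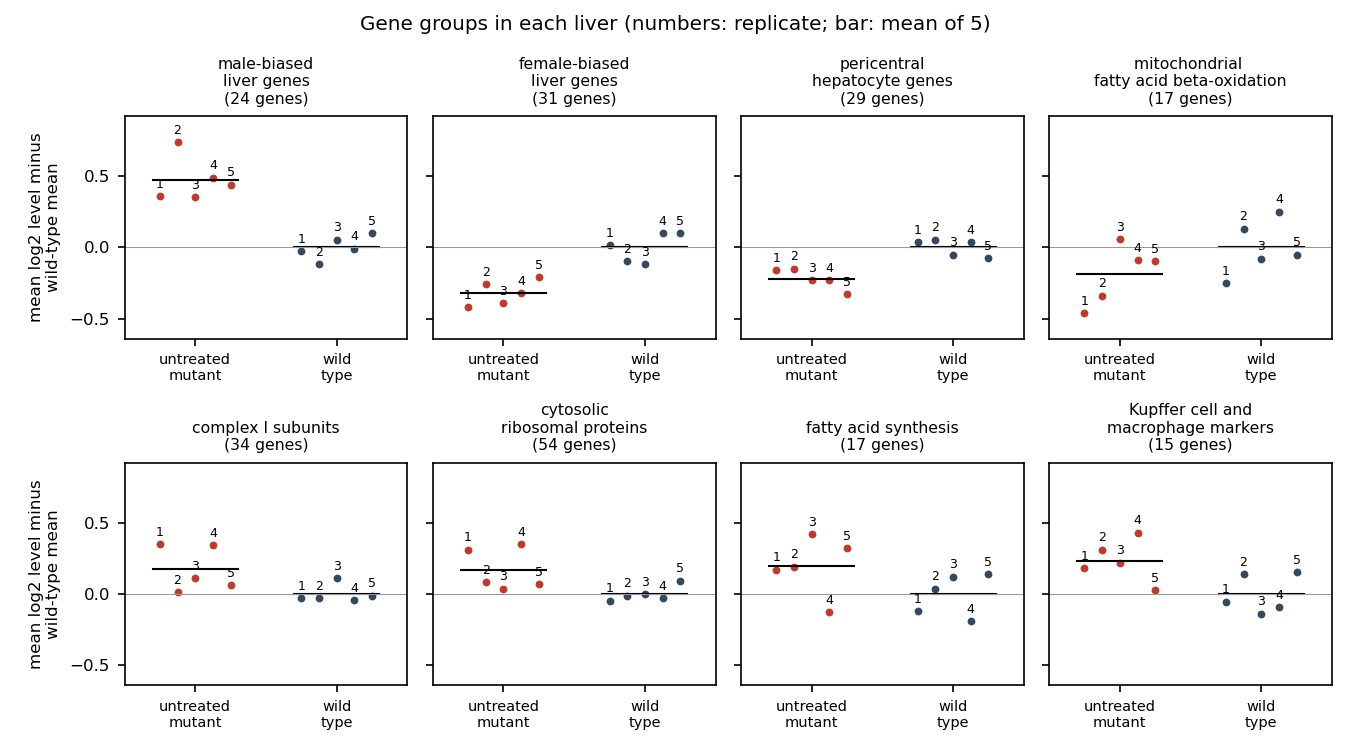
Mean log2 level of the genes in 8 groups in each liver, minus the mean of the 5 wild-type livers, with untreated mutants left and wild type right and the replicate number at each point. The 5 mutants lie outside the wild-type range for male-biased, female-biased and pericentral genes, and mutants 1 and 4 stand above the other 3 for complex I subunits and cytosolic ribosomal proteins. The male-biased group holds all 24 genes, 4 of them kept only through the untreated mutants.

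Genes of pericentral hepatocytes, those around the central vein, lay lower. Of 29 measured genes 22 were lower in mutants and 7 higher, with a median of -0.24, and 9 lower and 2 higher reached an unadjusted p under 0.05. The list shares 1 gene, Cyp2a5, with the female-biased list. Its mean lay at -0.16, -0.15, -0.23, -0.23 and -0.33 in the mutants and at -0.078 to 0.055 in wild type, without overlap, and its median was -0.27 without untreated mutants 1 and 4 and also by the prefix. Aldh3a2, a dehydrogenase of fatty aldehydes, was at 13.35, 13.38, 13.84, 13.23 and 13.36 in mutants, against 13.88, 14.05, 14.04, 14.45 and 13.85 in wild type (-0.62 ± 0.16, adjusted p = 0.235). Cyp1a2, which oxidises caffeine and aromatic amines, was at 13.28, 12.96, 12.93, 13.01 and 12.88 in mutants, against 13.93, 13.73, 13.97, 13.40 and 13.69 in wild type (-0.73 ± 0.22, adjusted p = 0.432). Sp5, a transcription factor induced by Wnt signals, was at 6.81 to 7.74 in mutants and 7.86 to 8.19 in wild type (-0.68 ± 0.20, adjusted p = 0.395). All 3 were without overlap and below the threshold of calling. Among the exceptions was Cyp7a1, the first enzyme of bile acid synthesis, at 11.07 to 12.97 in mutants and 10.28 to 11.96 in wild type (1.15 ± 0.51, adjusted p = 0.822). Of 21 periportal genes, from the other end of the lobule, 12 lay higher and 9 lower, with a median of 0.034, or -0.12 by the prefix. The adhesion molecule Cdh1 had the smallest p of them (0.69 ± 0.23, adjusted p = 0.555).

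The lists of lipid metabolism differed in side and were small in size. All 17 measured genes of mitochondrial beta-oxidation lay lower in mutants (median -0.19), 1 of them at an unadjusted p under 0.05. This was Acadm, the medium-chain dehydrogenase, at 13.59, 13.87, 14.06, 13.80 and 13.96 in mutants and 14.15, 14.42, 14.18, 14.64 and 14.01 in wild type (-0.43 ± 0.14, adjusted p = 0.497). The livers overlapped for the list as a whole, with means of -0.46 to 0.056 in mutants and -0.25 to 0.25 in wild type. Its median was -0.094 without untreated mutant 1, -0.10 without wild-type replicate 4, -0.30 without untreated mutant 3, -0.10 without untreated mutants 1 and 4, and -0.34 by the prefix. In peroxisomal oxidation 16 of 19 genes were on the lower side (median -0.18, or -0.11 without wild-type replicate 4), with Acox2, the oxidase of branched-chain acids and bile acid precursors, at -0.30 ± 0.10, while Nudt7 rose at its called probe. Genes of the PPAR alpha and fasting response were lower in 15 of 17 (median -0.21). That median was -0.39 without wild-type replicate 1, -0.096 without wild-type replicate 4 and -0.48 by the prefix. Pdk4, the kinase that shuts off pyruvate dehydrogenase in fasting, was at 7.25, 8.2, 8.36, 7.29 and 7.95 in mutants, against 9.33, 9.54, 8.26, 9.31 and 9.51 in wild type (-1.38 ± 0.41, adjusted p = 0.395), where wild-type replicate 3 lay within the mutant range.

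Fatty acid synthesis lay higher in 13 of 17 genes (median 0.17, or 0.11 without wild-type replicate 4, 0.099 without untreated mutant 2 and 0.30 without untreated mutants 1 and 4). Its list means overlapped, at -0.13 to 0.42 in mutants and -0.19 to 0.14 in wild type. Among its genes were Thrsp, a factor of lipogenic liver, at 0.85 ± 0.34, and Srebf1, which drives the pathway, at 0.46 ± 0.19, both uncalled (adjusted p = 0.74 and 0.786). Cholesterol synthesis lay higher in 14 of 15 (median 0.12, or 0.21 without untreated mutant 4, 0.26 without untreated mutants 1 and 4 and 0.29 by the prefix). Its list means also overlapped, at -0.30 to 0.59 in mutants and -0.20 to 0.22 in wild type. One gene of the list is Fdps, the farnesyl diphosphate synthase, at 0.50 ± 0.26. Fdps makes a precursor that both cholesterol and the tail of coenzyme Q need. None of the 15 reached an unadjusted p under 0.05. Genes of triglyceride assembly and lipid droplets lay lower in 16 of 22 (median -0.17, or -0.078 without wild-type replicate 4, -0.10 without untreated mutant 2 and -0.29 by the prefix). Here G0s2 fell, the droplet protein Plin5 was at -0.58 ± 0.28 and Plin3 at 0.42 ± 0.14. High-density lipoprotein and cholesterol export genes lay lower in 9 of 11 (median -0.23, or -0.14, -0.10 and -0.14 without untreated mutants 1, 2 and 5 in turn, and -0.11 by the prefix), with Lcat, which esterifies plasma cholesterol, at -0.35 ± 0.11 and Nceh1, a cholesteryl ester hydrolase, at -0.50 ± 0.15. Apolipoproteins had a median of -0.0071 and bile acid synthesis -0.068.

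Coenzyme Q synthesis itself showed no called gene. Of its 10 measured genes 6 lay higher and 4 lower (median 0.029, or -0.067 by the prefix). Coq7, the hydroxylase of the next to last step, was at 8.95, 8.78, 8.94, 9.04 and 9.05 in mutants, against 8.45, 8.36, 8.91, 8.58 and 8.58 in wild type (0.38 ± 0.12, adjusted p = 0.53), with only wild-type replicate 3 inside the mutant range. Coq10b, a coenzyme Q-binding protein, was at 0.55 ± 0.32 and the atypical kinase Coq8a at -0.51 ± 0.32, and their livers overlapped. Of 11 dehydrogenases and related enzymes that reduce coenzyme Q 9 lay lower (median -0.094), with Etfdh, the entry point for electrons from beta-oxidation, at -0.30 ± 0.17, and 0 reached an unadjusted p under 0.05. The 7 genes of hydrogen sulfide metabolism split 3 higher and 4 lower (median -0.052), with Sqor, the quinone-dependent sulfide oxidase, at -0.11 ± 0.17.

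Subunits of the respiratory chain lay higher together. Of 34 complex I genes 32 were higher in mutants and 2 lower (median 0.17), and 6 higher and 0 lower reached an unadjusted p under 0.05. Of 33 genes of complexes II to V 30 were higher and 3 lower (median 0.17), with 8 and 0 at that threshold. No member was called. Ndufb2 of complex I was at 10.46, 9.33, 9.51, 10.59 and 9.29 in mutants, against 8.96, 9.13, 9.38, 8.96 and 9.40 in wild type (0.67 ± 0.23, adjusted p = 0.536). The 2 high values were those of mutants 1 and 4. Cox7b of complex IV was at 9.58, 8.90, 9.06, 9.26 and 8.74 in mutants, against 8.72, 8.57, 8.61, 8.42 and 8.63 in wild type, without overlap (0.52 ± 0.16, adjusted p = 0.42).

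Both kinds of ribosomal proteins lay on the same side. Mitochondrial ribosomal proteins were higher in 58 of 72 genes (median 0.12), such as Mrpl20 (0.61 ± 0.17), and cytosolic ones in 52 of 54 (median 0.15), such as Rpl12 (0.45 ± 0.14). Mutants 1 and 4 had means of 0.35 and 0.34 for complex I and 0.31 and 0.35 for cytosolic ribosomal proteins, while the other 3 mutants lay at 0.014 to 0.11 and 0.036 to 0.081, within or near the wild-type ranges of -0.042 to 0.11 and -0.047 to 0.093. Without these 2 livers the medians were 0.067 for complex I, 0.12 for complexes II to V, 0.014 for mitochondrial and 0.067 for cytosolic ribosomal proteins. Blood cell markers also differed among the mutants. The 5 red blood cell markers had means of 0.016 and 0.56 in mutants 1 and 4 and -0.83 to -0.38 in the other 3, against -0.38 to 0.34 in wild type, and summed to 50200 to 175000 in mutants and 74600 to 123000 in wild type. The 4 neutrophil markers kept of 12 on the array had means of 0.71 and 0.87 in mutants 1 and 4 and -0.38 to 0.50 in the other 3, against -0.62 to 0.57 in wild type, and summed to 601 to 1590 in mutants and 416 to 1400 in wild type, with Mpo, Elane and Ltf not kept. Their part in the respiratory and ribosomal differences was not tested. The tricarboxylic acid cycle had a median of 0.015, or -0.051 by the prefix. Mitochondrial carriers had a median of -0.030 (-0.072 by the prefix), and mitochondrial chaperones and proteases -0.023 (-0.14 by the prefix).

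Among enzymes of foreign compounds the cytosolic sulfotransferases covered the widest range of all groups, from -3.25 for Sult2a2 to 2.70 for Sult3a1. Sult1c2, another member, was at 9.99, 9.75, 9.59, 9.90 and 9.58 in mutants, against 8.43, 8.70, 8.84, 8.70 and 8.90 in wild type, without overlap (1.05 ± 0.23, adjusted p = 0.092). Of 34 cytochrome P450 genes of families 1 to 3, 24 lay lower (median -0.12), and Cyp2c55 was at 8.72 to 9.85 in mutants and 6.61 to 8.65 in wild type (1.27 ± 0.30, adjusted p = 0.142). This list shares 7 genes with the pericentral list and 5 with the female-biased list, so the 3 lists are not separate observations. UDP-glucuronosyltransferases lay lower in 12 of 14 genes (median -0.18, or -0.058 by the prefix). Ugt3a1 was at 11.97, 12.23, 12.06, 12.15 and 11.87 in mutants, against 12.64, 12.56, 12.59, 12.77 and 12.28 in wild type (-0.51 ± 0.12, adjusted p = 0.118). Members of these families have similar sequences that a probe may share. Targets of the oxidative stress factor Nrf2 had a median of -0.073, with Abcc4 fallen and the glutathione transferase Gstm1 at -0.40 ± 0.12, and antioxidant enzymes a median of 0.082, with 0 of 22 called.

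Acute phase genes had a median of 0.019 over 25 genes, or 0.35 by the prefix, and interferon response genes 0.024 over 32. The metallothioneins, which bind zinc and copper, stood out among the acute phase genes. Mt2 was at 8.85, 9.12, 8.15, 9.54 and 8.84 in mutants, against 7.59, 6.38, 5.71, 7.78 and 6.90 in wild type (2.03 ± 0.50, adjusted p = 0.18). Mt1 was at 15.82 to 16.07 in mutants and 14.82 to 15.75 in wild type (0.70 ± 0.25, adjusted p = 0.609), near the top of the intensity range. Neither overlapped between groups, and neither was called. Cytosolic heat shock proteins lay lower in 8 of 9 genes (median -0.20), with Hspb1 of smallest p. That median was -0.12 without wild-type replicate 2, -0.075 without untreated mutant 4, -0.071 without untreated mutants 1 and 4, and -0.049 by the prefix. Endoplasmic reticulum chaperones had a median of -0.073, or 0.20 by the prefix, and the integrated stress response 0.010, or -0.12 by the prefix. The clock genes Dbp (1.37 ± 0.75) and Arntl (-0.70 ± 0.30) varied between livers, Dbp from 8.24 to 12.28 in mutants and from 7.55 to 11.72 in wild type, and immediate early genes had a median of 0.25 over 15 genes, or 0.16 without wild-type replicate 4, 0.081 without untreated mutant 5, 0.44 without untreated mutants 1 and 4, and 0.049 by the prefix.

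Markers of other cell types were read for the same livers. In whole liver fewer or more cells of a type and less or more RNA per cell cannot be told apart. Kupffer cell and macrophage markers lay higher in 13 of 15 genes (median 0.27, or 0.17 without untreated mutants 1 and 4). Folr2, a folate receptor of resident macrophages, was at 9.14, 8.66, 8.59, 9.19 and 8.59 in mutants, against 8.37, 8.13, 8.24, 8.13 and 8.67 in wild type (0.53 ± 0.15, adjusted p = 0.342). On the linear scale the 15 markers summed to 22500 to 27000 in mutants and 19700 to 24700 in wild type, which overlap. The bile duct markers Sox9 (-0.95 ± 0.25, adjusted p = 0.235) and Krt23 (-1.02 ± 0.32, adjusted p = 0.434) were lower, and the 6 others of that list on the array, among them Krt19, Krt7 and Epcam, were not kept. Their sum was 433 to 616 in mutants and 889 to 1290 in wild type. Sox9 and Krt23 are therefore the only 2 measured markers of 8 on the array.

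Albumin and other plasma carriers had a median of -0.037 over 16 genes, with list means of -0.25 to -0.071 in mutants and -0.035 to 0.032 in wild type. Of 16 sinusoidal endothelial markers 7 lay higher and 9 lower, with a median of -0.0042. At an unadjusted p under 0.05 there was 1 on each side. These were the hyaluronan receptor Lyve1, at 8.68, 8.28, 8.92, 8.75 and 8.82 in mutants and 7.30, 7.95, 7.86, 8.34 and 8.10 in wild type (0.78 ± 0.19, adjusted p = 0.173), and Fcgr2b (-0.23 ± 0.11, adjusted p = 0.86). Stellate cell and matrix markers had a median of 0.035, or -0.18 by the prefix. Among them the collagen Col3a1 was at 6.65 to 7.31 in mutants and 6.49 to 6.63 in wild type (0.41 ± 0.11, adjusted p = 0.309). Col1a1 and Timp1 of that list were not kept. Hepatocyte markers had a median of -0.0061 over 10 genes. No B cell marker of the 7 on the array was kept, and of 10 dendritic markers on the array 2 were kept, Cd207, which fell, and Siglech, a lectin of plasmacytoid dendritic cells, at 0.028 ± 0.14 (adjusted p = 0.999). Whether cell makeup bears on the pericentral, sex-biased or respiratory groups was not tested.

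Mutant livers varied more among themselves than wild-type livers. The median SD over probes was 0.252 in mutants and 0.214 in wild type (n = 5 each), and 61.1% of the probes had the larger SD in mutants. Among the 3 mutants other than replicates 1 and 4 the median SD was 0.179. Calls were spread over the range of brightness, with 5 among the 5032 dimmest probes, 7 among the 5032 in the middle and 6 among the 5032 brightest, where 4.13%, 6.10% and 6.28% had an unadjusted p under 0.05.

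The called probes were also read in the 2 other groups of mutants, which share the wild-type livers as comparison. Against wild type 106 probes were called for mutants labelled probucol (0.702%) and 66 for mutants labelled CoQ10 (0.437%), and of the 18 probes 11 and 10 were among them. The called probe of Ddo, undetected in all 10 of these livers, was at least 2.27-fold lower than in wild type in mutants labelled probucol. In those labelled CoQ10 it was at least 2.28-fold lower. Rsph4a, undetected in the same 10 livers, was at least 1.46-fold lower in each. Ide differed from wild type by -0.94 ± 0.12 in mutants labelled probucol and -1.11 ± 0.12 in those labelled CoQ10. For Cyp4a12a, Abcc4 and Plekhb1 the mutant groups differed from each other. Cyp4a12a was undetected in all 10 of these livers, as in wild type, and so was kept through the untreated mutants alone. With that limit it was at least 2.52-fold higher in untreated mutants than in those labelled probucol (adjusted p = 9.01e-04). It was at least 2.53-fold higher than in those labelled CoQ10 (adjusted p = 3.09e-04). Abcc4 was lower in untreated mutants than in those labelled probucol by -0.87 ± 0.13 (adjusted p = 0.0136), and Plekhb1 lower than in those labelled CoQ10 by -1.31 ± 0.20 (adjusted p = 0.00311). Only 2 probes were called between untreated mutants and those labelled probucol (0.0132%), and 18 between untreated mutants and those labelled CoQ10 (0.119%). The directions are those of the treatment label, and the name prefix would exchange the untreated and probucol groups.

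**Figure D5:**
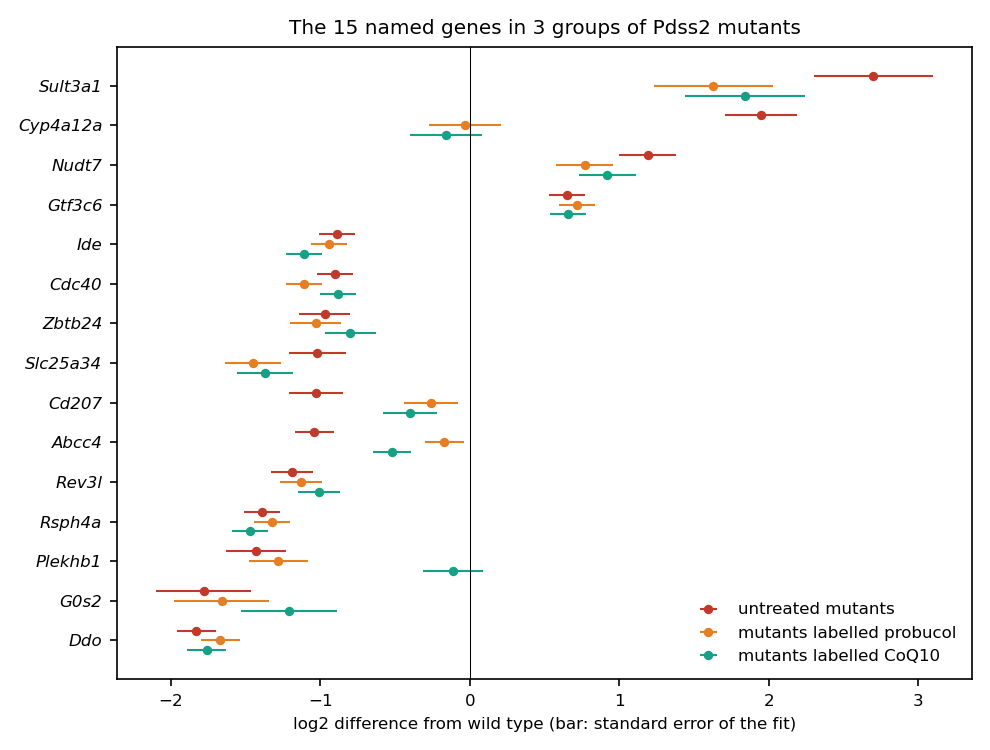
Log2 difference from wild type (x axis, bars are standard errors of the fit) of the 15 named called genes, each at its called probe. Groups are untreated mutants (red), mutants labelled probucol (orange) and mutants labelled CoQ10 (green). The 3 groups share the same 5 wild-type livers; Ddo, Rsph4a and Rev3l lie at -1.01 or below in all 3, and Cyp4a12a is away from 0 in untreated mutants. Ddo, Rsph4a and Cyp4a12a are undetected in whole groups and Rev3l in the untreated mutants, so their points there are fitted values and no exact differences.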

How the data were processed

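Total RNA of 20 female mouse livers, 5 in each of 4 groups, was read on Illumina Mouse WG-6 v2.0 arrays, per the labels. The deposited table holds intensity per probe, not normalised between arrays, and the authors' detection value, a fraction headed as a p that rises with intensity, so 1 minus it was used as the detection p. The authors also deposited log2 values, normalised by a method not given in the sources used here, with column medians of 7.81 to 7.819. They served as an alternative, and each column correlated best with its own array for 20 of 20 arrays.

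In limma 3.58.1 under R 4.3.3, normexp (offset 16) removed the background, its control parameters coming from the detection p, and quantile normalisation and log2 followed. Probes with a detection p under 0.05 in at least 5 arrays were kept. lmFit and eBayes fitted 4 group means over the 20 arrays, and p-values were adjusted by Benjamini-Hochberg over all kept probes. Arrays are single animals, and their number limits the precision. On simulated data of 15096 probes for this comparison, 85 percent of 100 probes changed by 1 on the log2 scale and 97 percent of 100 changed by 2 were called, with 9 false calls. The simulated noise was independent between probes, and more probes were changed than were called here. These shares therefore do not give the share of real changes of that size that would be called in these livers. Symbols came from the platform annotation: 34885 probes had 1 symbol, 18 several and 10378 none, and 34807 were matched to the gene table. A gene in a list is read at its brightest kept probe.

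Genes were named by rule: called probes, all kept probes of a called gene, the next 10 on each side of smallest p without overlap, up to 4 genes per list of smallest p, and probes detected in all livers of 1 group and none of the other. Lists and members were chosen with earlier results of these data known. Apoa1, Ttr, Alb, Xist and the Y-linked genes check the labels. Replicate numbers are the labels' own. Livers with the same number deviated with correlations of 0.43, -0.23, -0.0094, 0.38 and 0.099, so the numbers do not pair the livers. The alternatives covered background correction, normalisation, filter, samples in the fit, array number, replicate block, age, the name prefix and each liver left out.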

Additional observations from a re-analysis of the deposited data

Results flagged for a closer look

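In each group of 5 livers the highest and the lowest value were compared with the nearest other value, and a group was marked where that gap took an unusually large share of its range by Dixon's 95% limit. Chance marks about 1 group in 20, and 27 of 516 groups over all genes named by rule and both kidney measures were marked (5.23%). Those of genes described above are given here as values.

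Untreated mutant replicate 5 had Rsph4a at 5.46, with the other mutants at 5.28 to 5.33, all of them undetected. Untreated mutant replicate 3 had Aldh3a2 at 13.84, with the others at 13.23 to 13.38. Untreated mutant replicate 2 had C6 at 10.09, with the others at 9.06 to 9.35. Wild-type replicate 4 had the unnamed probe ILMN_3079461 at 9.36, with the others at 9.87 to 10.01, and Amigo2 at 9.28, with the others at 9.05 to 9.09. Wild-type replicate 1 had Rdh9 at 10.49, with the others at 11.13 to 11.36, and so lay within the mutant range for this gene. Wild-type replicate 3 had Pdk4 at 8.26, with the others at 9.31 to 9.54. The glomerular nephritis score was 1 in 1 wild-type mouse and 0 in the other 4.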

How the results depend on the processing

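The count of 18 called probes was 9 with median scaling, 31 with only the 2 groups compared and 106 with the array name prefix read as the group, and the leave-one-out counts ran from 14 to 22. Of the 18 probes 8, 17 and 11 remained called under the first 3 settings. Under median scaling Abcc4, Cd207, Cdc40, G0s2, Gtf3c6, Ide, Slc25a34, Zbtb24 and 2 unnamed probes lost their calls; the cause was not tested. The other settings gave 13 to 25 calls. With the array number in the name as a block 25 probes were called, and with the replicate block 22, and 17 of the 18 remained in each, without ILMN_1245816. With the authors' log2 values 18 were called, 16 of them shared, without Cd207 and Gtf3c6. With probes detected in all 20 arrays 6 of the 18 were not tested.

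By the array name prefix the direction turned for Igfbp3 (-0.038), Igf1 (-0.21), Arntl (0.058) and the Ddo probe ILMN_2808191 (-0.20). Cyp4a12a and Cyp4a12b are then undetected in both groups, and their fitted values of -0.031 and -0.04 give no direction. That Ddo probe was also at -0.0084 without wild-type replicate 2. Siglech, at 0.028 as reported, was at -0.023 by the prefix, -0.071 without the 2 youngest untreated mutants, and from -0.057 to 0.096 with single livers left out. The second Gtf3c6 probe, ILMN_1257110, at 0.0043 as reported, was at -0.014 with median scaling, -0.0056 with the authors' values and from -0.075 to 0.11 with single livers left out. Over all 263 probes named by rule, 63 of 5480 values turned direction, 63 lost a call and 60 gained one. For the 90 probes described above these were 17, 63 and 54 of 1868. Of 1302 list medians 45 moved by more than the spread between mutant livers. Brightness limits the 5032 dimmest probes, where the median standard error was 0.17, against 0.14 in the 5032 brightest.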
